A study of Homo sapiens with 4 samples.

Results

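The genes described here are 10 components of the Notch pathway: the receptors *NOTCH1*, *NOTCH2* and *NOTCH3*, the ligands *JAG1*, *JAG2* and *DLL1*, and the transcriptional repressors *HES1*, *HEY1*, *HEY2* and *HEYL*. They were chosen by name, with earlier results of these data known. Each of the 10 named exactly 1 of the 31681 genes in the count table. The cells were BT549, an established human line of triple-negative breast cancer (TNBC), whose RNA was sequenced after flow cytometry had separated cells with high (NRP2-high, 2 libraries) from cells with low surface NRP2 (NRP2-low, 2 libraries). All 4 libraries came from this 1 line with no genetic change or treatment named in the labels, and the gates of the sort are not described in the sources used here. NRP2, neuropilin-2, is a receptor for VEGF and semaphorins, and the comparison of NRP2-high with NRP2-low cells asks which transcripts differ between these subpopulations. Whether both libraries of a population stem from independent cultures is not stated, so p-values reflect the spread between these samples alone, which may be technical.

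Notch signaling passes between cells in contact. A ligand of the Jagged (JAG) or Delta-like (DLL) type on the surface of 1 cell binds a Notch receptor on its neighbor, and the receptor is then cut by an ADAM protease and by γ-secretase. The freed intracellular domain enters the nucleus, joins the DNA-binding protein RBPJ and a Mastermind (MAML) coactivator, and induces genes of the *HES* and *HEY* families, whose products repress transcription. In breast tissue the pathway is known for its part in lineage choice and in cells with stem cell properties.

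The RefSeq promoter table (build GRCh38.p14), which runs from 250 bases before to 50 bases after each gene's start, held 8 of the 10 genes. *HEY1* and *DLL1* had no entry. The core of the RBPJ binding motif, TGGGAA, was searched on both strands and occurred in 24.0% of all 35116 promoters, with 2 or more copies in 3.8%. The *HES1*, *HEY2* and *HEYL* promoters each held 2 copies, and the promoters of *JAG1*, *JAG2*, *NOTCH1*, *NOTCH2* and *NOTCH3* held none. In *HES1* both copies lay on the gene's own strand, from 84 to 79 and from 70 to 65 bases before the start, with 8 bases between them. The longer form GTGGGAA, which contains the core and was present in 6.25% of all promoters, occurred 1 time in *HES1*, 1 time in *HEYL* and 2 times in *HEY2*. Whether the motif bears on transcript levels was not tested. The promoters of *HES1*, *HEY2* and *HEYL* are shown for their 2 copies each. That of *JAG1* is shown for its change, the largest among the tested members. Each reads 5′ to 3′ on the strand of its gene, and capitals mark TGGGAA or its reverse complement TTCCCA.
HES1, chr3:194135898-194136197, plus strand: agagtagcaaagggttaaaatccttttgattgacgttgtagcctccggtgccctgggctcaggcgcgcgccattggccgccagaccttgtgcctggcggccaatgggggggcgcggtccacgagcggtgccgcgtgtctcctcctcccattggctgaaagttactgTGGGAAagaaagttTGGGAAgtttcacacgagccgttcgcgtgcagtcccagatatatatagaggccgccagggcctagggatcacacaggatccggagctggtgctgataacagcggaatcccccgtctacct
HEY2, chr6:125749382-125749681, plus strand: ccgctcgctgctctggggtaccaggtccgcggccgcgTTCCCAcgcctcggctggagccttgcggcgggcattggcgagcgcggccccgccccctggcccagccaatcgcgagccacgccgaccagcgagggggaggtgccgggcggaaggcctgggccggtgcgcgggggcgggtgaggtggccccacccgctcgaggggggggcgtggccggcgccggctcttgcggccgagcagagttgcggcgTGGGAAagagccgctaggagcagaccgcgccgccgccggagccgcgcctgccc
HEYL, chr1:39639594-39639893, minus strand: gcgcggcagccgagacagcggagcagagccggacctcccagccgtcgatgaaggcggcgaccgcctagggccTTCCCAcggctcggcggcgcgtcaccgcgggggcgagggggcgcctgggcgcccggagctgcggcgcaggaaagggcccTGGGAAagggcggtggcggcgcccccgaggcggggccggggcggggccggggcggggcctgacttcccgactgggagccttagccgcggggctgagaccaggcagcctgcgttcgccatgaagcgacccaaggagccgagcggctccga
JAG1, chr20:10673950-10674249, minus strand: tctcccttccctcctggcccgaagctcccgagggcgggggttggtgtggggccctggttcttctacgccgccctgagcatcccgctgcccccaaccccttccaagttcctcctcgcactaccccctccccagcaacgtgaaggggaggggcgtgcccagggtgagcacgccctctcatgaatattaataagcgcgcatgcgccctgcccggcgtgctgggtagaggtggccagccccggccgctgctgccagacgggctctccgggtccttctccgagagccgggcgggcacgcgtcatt
The E box CACGTG, a site type of HEY proteins present in 7.26% of all promoters, was in none of the 8. The N box CACNAG, a site type of HES proteins present in 38.0%, occurred 4 times in *HES1*, 2 times in *NOTCH1* and 1 time each in *NOTCH2* and *NOTCH3*. A match describes the letters alone, binding was not measured, and a promoter without a match lacks these letters only within this window.

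Total counts were 18727299 and 20585102 in NRP2-high libraries and 19183827 and 18165923 in NRP2-low libraries. At these depths, a count of 0 in a library allows up to 0.150 to 0.163 CPM (3 counts; counting error only). *NRP2* itself was at 141 and 146 CPM (counts per 1e6 of the TMM-adjusted library size) in NRP2-high cells and at 9.77 and 8.81 CPM in NRP2-low cells, in the direction of the labels. The mesenchymal marker *VIM* was at 23658 to 27183 counts in all libraries, and the summed endothelial and immune markers stayed at or below 1.06 CPM. Summed mesenchymal markers were at 5949 and 6224 CPM in NRP2-high cells, against 3052 and 3048 CPM in NRP2-low cells, and most of that gap was *FN1* (3935 and 4086 CPM in NRP2-high cells, against 1106 and 1122 CPM in NRP2-low cells), while *VIM* and *ZEB1* did not pass and *CDH2* was lower. The 7 epithelial markers found in the table did not move together: *KRT19* (205 and 266 counts in NRP2-high cells, against 6 and 7 in NRP2-low cells) and *CLDN7* were higher, *KRT18* (8 and 5 counts in NRP2-high cells, against 73 and 69 in NRP2-low cells) and *KRT8* were lower, *CLDN4* did not pass, and *CDH1* and *EPCAM*, at 5 counts or fewer, were not tested. Their sum was 19.9 and 20.8 CPM in NRP2-high cells, against 9.72 and 9.60 CPM in NRP2-low cells, although the median log2 fold change of the 5 tested was -0.71. Summed mural cell markers were at 63.9 and 69.4 CPM in NRP2-high cells, against 34.6 and 37.3 CPM in NRP2-low cells, with *MCAM* and *PDGFRB* higher and *RGS5* lower in the more abundant of its 2 entries. These marker genes were singled out after their values were seen. Mitochondrially encoded genes held 6.92% and 9.16% of all counts in NRP2-high cells, against 5.57% and 5.85% in NRP2-low cells. Of 10 sorting and stress response genes, 5 were lower in NRP2-high cells and none was higher (27.7% and 28.9% of all tested genes). The part of these differences in the results on Notch genes was not tested.

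Of the 10 genes, 7 passed the filter on low counts and were tested. By the quasi-likelihood test of edgeR, adjusted by Benjamini-Hochberg over all 15083 tested genes, 4 were higher in NRP2-high cells (*JAG1*, *HES1*, *JAG2* and *NOTCH2*), 2 were lower (*NOTCH1* and *NOTCH3*) and 1 did not pass (*HEY1*). Among all tested genes, 56.5% passed, 28.9% higher and 27.7% lower, so that higher genes were 51.0% of the calls (40.3% with library totals in place of TMM scaling), and the family's 6 calls must be read against a comparison in which most genes moved. The 2 populations did not overlap in CPM for any of the 7, and 78.2% of all tested genes had no overlap either. The median log2 fold change of the 7 was 0.89, against -0.01 over all tested genes. The family was chosen with earlier results of these data known, so this gap is a description and no test of the family. By size of change, *JAG1* ranked 192 of 15083 by increase.

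**Figure D1:**
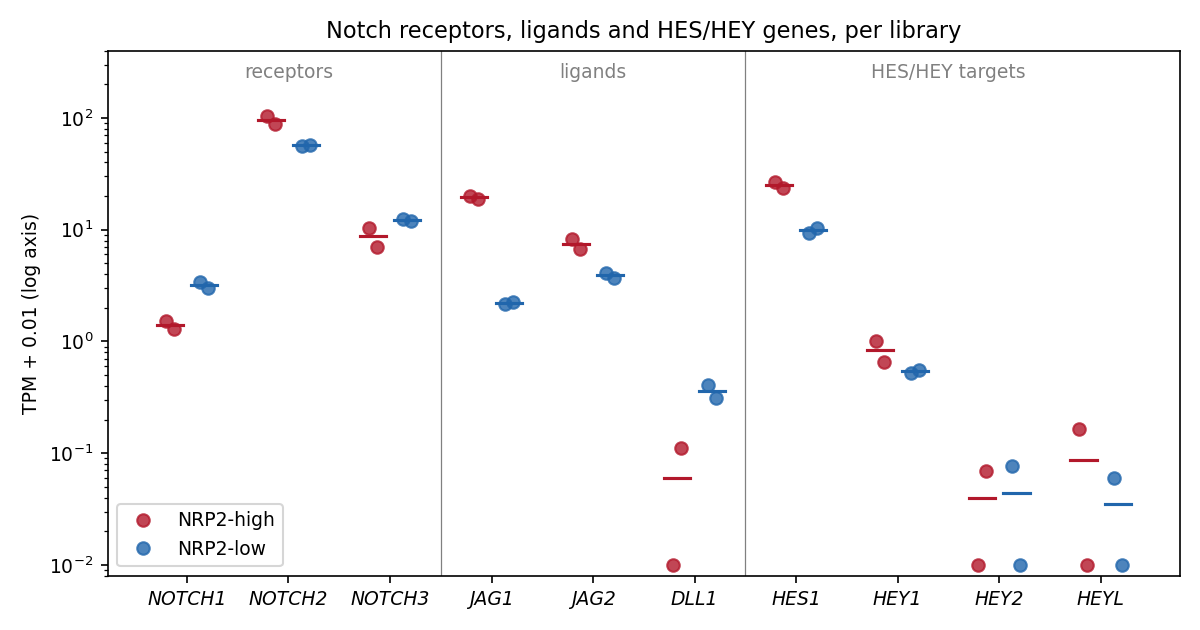
Levels of the 10 genes in each library, as TPM + 0.01 on a log axis, with NRP2-high (red) left of NRP2-low (blue); points are libraries and bars are means of 2. *NOTCH2* stood highest in both populations, *JAG1* showed the widest gap between them, and *DLL1*, *HEY2* and *HEYL* lay near 0 in all 4 libraries.

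Across the receptors, NRP2-high cells carried more *NOTCH2* and less *NOTCH1* and *NOTCH3* transcript. *NOTCH2*, a receptor known from bile duct and B cell development, was at 498 and 469 CPM in NRP2-high cells and at 257 and 265 CPM in NRP2-low cells. Both NRP2-high libraries lay far above the NRP2-low libraries. In bulk RNA such as this, a change in the share of cells that express a gene cannot be told from a change within each cell. The log2 fold change was 0.89 (standard error, SE, 0.05, adjusted p = 1.36e-07), or 1.85-fold, and it ran from 0.73 to 0.93 over 18 alternative analyses, in all of which it passed. *NOTCH2* (ENSG00000134250.19) is on chromosome 1 (hg38, minus strand) from 119911553 to 120069626, and its partial copy *NOTCH2NLA*, which shares near-identical sequence with it, had 61 and 47 counts in NRP2-high cells, against 54 and 63 in NRP2-low cells, with a log2 fold change of -0.08 (adjusted p = 0.80). Reads that fit both copies equally would be lost to a filter on mapping quality, so the level of either is uncertain to that extent.

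*NOTCH1*, the receptor best known from T cell development and its leukemias, went the other way. It was at 4.51 and 4.27 CPM in NRP2-high cells and at 9.47 and 8.44 CPM in NRP2-low cells. Every NRP2-high library was below every NRP2-low library, by 2.04-fold in the fit (log2 change -1.03, SE 0.15, adjusted p = 0.000155). *NOTCH3*, a receptor prominent in vascular smooth muscle, was at 28.0 and 20.9 CPM in NRP2-high cells and at 31.6 and 30.8 CPM in NRP2-low cells. The NRP2-high libraries differed more from each other than the nearer of them did from the NRP2-low libraries. The fit gave a log2 change of -0.35 (SE 0.12, adjusted p = 0.0271), and the call was lost in 10 of 18 alternatives, among them DESeq2 (adjusted p = 0.0748). Without NRP2-high replicate 2 the value was -0.15 (adjusted p = 0.121), without NRP2-high replicate 1 it was -0.58 and still passed, and without NRP2-low replicate 1 or 2 the adjusted p was 0.0896 or 0.0667. *NOTCH4*, the receptor of endothelium, had 3 and 6 counts in NRP2-high cells, against 9 and 1 in NRP2-low cells, below the filter on low counts. *NOTCH3* (ENSG00000074181.8) is on chromosome 19 (hg38, minus strand) from 15159038 to 15200981.

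Levels of different genes can be compared only per gene length, for which the deposited TPM were used. Within a library, *NOTCH2* supplied 89.6% and 91.3% of the summed TPM of the 4 receptors in NRP2-high cells, against 78.0% and 79.3% in NRP2-low cells. *NOTCH3* supplied 9.03% and 7.27% in NRP2-high cells, against 17.1% and 16.5% in NRP2-low cells, and *NOTCH1* 1.32% and 1.35% in NRP2-high cells, against 4.66% and 4.10% in NRP2-low cells. The receptor pool thus leaned further toward *NOTCH2* in the NRP2-high libraries, where *NOTCH2* exceeded *NOTCH1* by 68.1- and 67.7-fold in TPM, against 16.7- and 19.4-fold in the NRP2-low libraries. Such ratios within a library do not depend on how libraries are scaled to each other. The summed receptor TPM was 115 and 95.9 in NRP2-high cells, against 72.2 and 73.0 in NRP2-low cells.

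The ligands showed the largest change of the family. *JAG1*, which encodes the ligand Jagged 1, reached 985 and 1080 counts in NRP2-high cells, against 109 and 107 in NRP2-low cells. This was 53.5 and 55.6 CPM in NRP2-high libraries and 5.46 and 5.68 CPM in NRP2-low libraries, with a difference between populations many times that between replicates. *JAG1* rose 9.79-fold (log2 change 3.29, SE 0.09, adjusted p = 6.44e-10). The increase passed in all 18 alternatives and ran from 3.25 to 3.32 on the log2 scale without 1 library at a time; log2(FPKM + 1), whose pseudocount shrinks the change of low genes, gave the smallest value, 2.04. The gene (ENSG00000101384.12) is on chromosome 20 (hg38, minus strand) from 10637684 to 10673999. *JAG2*, which encodes the related Jagged 2, was at 15.1 and 13.7 CPM in NRP2-high cells and at 7.17 and 6.42 CPM in NRP2-low cells. It rose 2.11-fold (log2 change 1.08, SE 0.13, adjusted p = 3.01e-05). *JAG2* (ENSG00000184916.8) is on chromosome 14 (hg38, minus strand) from 105140981 to 105168824.

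*DLL1*, which encodes a Delta-like ligand of muscle and neural progenitors, had 0 and 2 counts in NRP2-high cells, against 7 and 5 in NRP2-low cells, below the filter on low counts. The pooled counts, 2 in NRP2-high and 12 in NRP2-low cells, correspond to a ratio of 0.171 per library size, with an exact 95% interval (Clopper-Pearson, covering counting error only) from 0.0186 to 0.768. With no filter on low counts, *DLL1* did not pass (adjusted p = 0.0764). *DLL1* is overlapped on the other strand by *FAM120B*, which had 766 and 867 counts in NRP2-high cells, against 702 and 666 in NRP2-low cells, and whether counting used strand is not given in the sources used here. *DLL3*, which encodes a ligand that acts mainly inside its own cell, was at 1.81 and 1.36 TPM in NRP2-high cells, against 2.40 and 2.76 TPM in NRP2-low cells, with a log2 change of -0.56 in the count test (SE 0.28, adjusted p = 0.114), while *DLL4*, the ligand of sprouting endothelium, had a single count over all libraries. The noncanonical ligands *DNER* and *DLK2* had log2 fold changes of 0.16 (adjusted p = 0.169) and -0.32 (adjusted p = 0.315). None of the 4 tested genes among these further receptors and ligands passed.

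In TPM, the order of the 2 Jagged genes turned between the populations. *JAG1* exceeded *JAG2* by 2.45- and 2.79-fold in NRP2-high cells, whereas it was at 0.524 and 0.608 of *JAG2* in NRP2-low cells. Of the summed TPM of *JAG1*, *JAG2*, *DLL1*, *DLL3* and *DLL4*, *JAG1* made up 66.7% and 69.7% in NRP2-high libraries and 23.8% and 24.8% in NRP2-low libraries. The sum itself was 30.1 and 27.0 TPM in NRP2-high cells and 9.09 and 9.04 TPM in NRP2-low cells, without overlap between the populations in the sum or in the share of *JAG1*. *DLL3* made up 6.01% and 5.04% of it in NRP2-high cells, against 26.4% and 30.5% in NRP2-low cells.

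**Figure D2:**
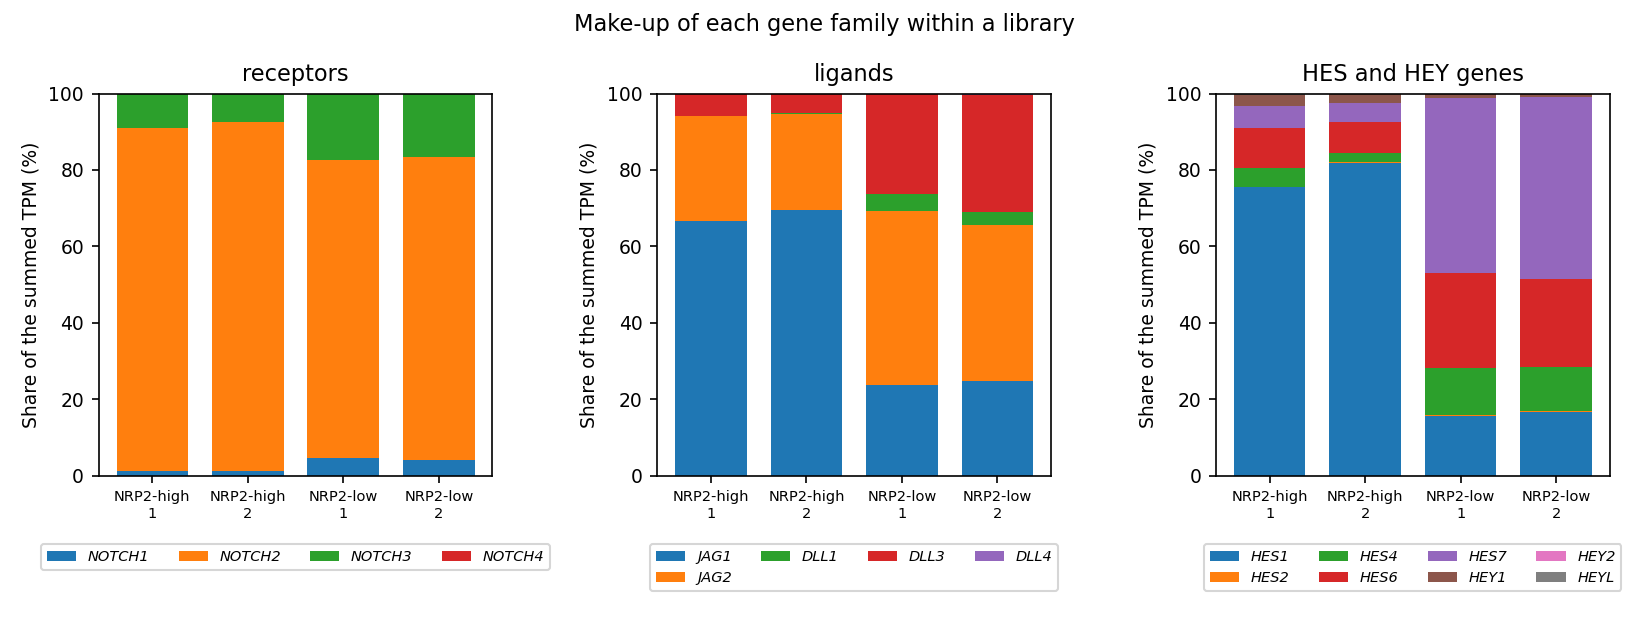
Share of each gene in the summed TPM of its family, within each library (bars, NRP2-high left of NRP2-low), for receptors, ligands, and HES and HEY genes. *JAG1* and *HES1* filled most of their bars in NRP2-high cells, and *JAG2* and *HES7* were the largest parts in NRP2-low cells.

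Among the targets, *HES1* was the 1 member with a clear difference. *HES1* encodes a repressor of differentiation genes and is the most widely used readout of Notch activity, although other pathways induce it too. It was at 15.8 and 15.6 CPM in NRP2-high cells and at 5.26 and 5.84 CPM in NRP2-low cells. The libraries of a population lay close together and the populations far apart, for a 2.83-fold increase (log2 change 1.499, SE 0.12, adjusted p = 2.1e-06) that passed in all 18 alternatives, from 1.13 to 1.57 on the log2 scale. The gene (ENSG00000114315.3) is on chromosome 3 (hg38, plus strand) from 194136145 to 194138732. Its promoter is the first sequence shown above, with the matches to TGGGAA in capitals.

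The HEY genes, whose products resemble HES1 and act in the heart and vessels, were near the limit of detection. *HEY1* had 17 and 13 counts in NRP2-high cells, against 9 and 9 in NRP2-low cells. The counts were higher in both NRP2-high libraries, but the log2 fold change of 0.77 had a standard error of 0.41 and did not pass (adjusted p = 0.136). *HEYL* had 3 and 0 counts in NRP2-high cells, against 1 and 0 in NRP2-low cells, and *HEY2* had 0 and 1 in NRP2-high cells, against 1 and 0 in NRP2-low cells. With no filter on low counts, the adjusted p was 0.991 for *HEY2* and 0.630 for *HEYL*. At this depth a difference in *HEY2* or *HEYL* was not detectable.

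By TPM, *NOTCH2* stood first in both populations, and the order from place 2 to place 6 differed. In NRP2-high cells *NOTCH2* (95.4 ± 11.04 TPM, SD, n = 2) was followed by *HES1* (25.2 ± 2.14), *JAG1* (19.4 ± 0.898), *NOTCH3* (8.69 ± 2.42), *JAG2* (7.46 ± 1.04), *NOTCH1* (1.40 ± 0.156) and *HEY1* (0.823 ± 0.244). *NOTCH3* and *JAG2* overlapped there, as did *HEYL*, *DLL1* and *HEY2* at the bottom. In NRP2-low cells *NOTCH2* (57.1 ± 1.12 TPM, SD, n = 2) was followed by *NOTCH3* (12.2 ± 0.222), *HES1* (9.90 ± 0.712), *JAG2* (3.91 ± 0.309), *NOTCH1* (3.18 ± 0.264), *JAG1* (2.20 ± 0.0573), *HEY1* (0.529 ± 0.0207) and *DLL1* (0.351 ± 0.0694). Only *HEY2* and *HEYL* overlapped in NRP2-low cells. *JAG1* stood in place 3 in NRP2-high cells and in place 6 in NRP2-low cells.

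Of the 5 tested genes on the list of other HES-type repressors and feedback targets, 4 were lower in NRP2-high cells, opposite to *HES1*. None was higher, and over all tested genes 27.7% were lower and 28.9% higher. *HES7*, which encodes the oscillating repressor of the vertebrate segmentation clock, was at 1.09 and 0.876 CPM in NRP2-high cells and at 13.9 and 15.0 CPM in NRP2-low cells. It was 14.7-fold lower in NRP2-high cells (log2 change -3.88, SE 0.18, adjusted p = 2.55e-08). *HES6*, whose product is known to oppose Hes1 in the neural cells of mice, was at 2.17 and 1.49 CPM in NRP2-high cells and at 8.17 and 7.91 CPM in NRP2-low cells, a log2 change of -2.13 (SE 0.20, adjusted p = 5.54e-06). *HES4*, named after its values were seen, had 10 and 5 counts in NRP2-high cells, against 45 and 41 in NRP2-low cells (log2 change -2.46, adjusted p = 0.000195), and *BHLHE40*, a stress- and hypoxia-induced relative, fell by 0.89 on the log2 scale (adjusted p = 1.94e-06). *BHLHE41*, named after its values were seen, was at 3.53 and 3.66 CPM in NRP2-high cells, against 2.76 and 2.39 CPM in NRP2-low cells, and its log2 change of 0.48 did not pass (adjusted p = 0.0663). The feedback inhibitor *NRARP*, also named after its values were seen, had 9 and 11 counts in NRP2-high cells, against 5 and 6 in NRP2-low cells and was not tested. Within a library, *HES1* made up 75.7% and 81.9% of the summed TPM of 8 HES and HEY genes in NRP2-high cells, against 15.7% and 16.8% in NRP2-low cells, where *HES7* made up 46.0% and 47.6%. The sum itself was lower in NRP2-high cells (35.3 and 28.9 TPM) than in NRP2-low cells (59.7 and 62.0 TPM), unlike the receptor and ligand sums.

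The genes that process the receptor and read its signal moved in both directions, and of 56 tested genes on the 8 lists of the wider pathway 20 were higher, 18 lower and 18 did not pass (median log2 fold change 0.03). Over all tested genes 56.5% passed, 28.9% higher and 27.7% lower, and the counts per list must be read against these shares. The list of receptor maturation and glycosylation had all 5 of its tested genes higher (28.9% of all tested genes), with a median of 0.45. *MFNG*, a further gene of the list named after its values were seen, was not tested. It had 2 and 2 counts in NRP2-high cells, against 7 and 11 in NRP2-low cells. In TPM, which is not scaled by TMM, none of the 5 tested genes turned direction, but *POFUT1* and the Fringe gene *RFNG*, named after its values were seen, overlapped between the populations. *LFNG* encodes a Fringe enzyme that extends sugars on Notch. It was at 4.89 and 3.45 CPM in NRP2-high cells and at 0.652 and 0.849 CPM in NRP2-low cells. Its increase was 5.52-fold (log2 change 2.47, SE 0.30, adjusted p = 3.75e-05). *FURIN*, the convertase that cuts the receptor in the Golgi, rose by 1.10 on the log2 scale and the fucosyltransferase *POFUT1* by 0.16 (adjusted p = 0.0227).

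Among 8 genes of receptor cleavage, 1 was higher, 3 were lower and 4 did not pass. *ADAM10*, the protease of the ligand-induced cut, rose by 0.39 on the log2 scale (adjusted p = 6.3e-05), while the γ-secretase genes *APH1B* and *NCSTN* had log2 fold changes of -0.67 and -0.26. In the transcription complex, 4 of 7 tested genes were higher and 2 lower. The acetyltransferase coactivators *EP300* and *CREBBP* rose by 1.08 and 0.65 and the coactivator *MAML2* by 0.42, whereas *RBPJ* itself, named after its values were seen, had a log2 fold change of -0.23 (adjusted p = 0.00406). Of the genes that ubiquitylate or traffic the receptor, 4 of 9 tested were higher and 3 lower, with *ITCH* at 0.58, *DTX3L* at -1.08 and *DTX3* at -1.08 on the log2 scale. Ligand endocytosis, needed to pull on the receptor, had *MIB1* higher by 0.43 and *EPN2* at -0.98, with 3 of 5 tested genes not passing. The corepressors divided evenly, 5 higher and 5 lower of 13, with *TLE3* at 1.43, *AES* (now *TLE5*) at -0.68 and *NCOR1* at -0.56.

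**Figure D3:**
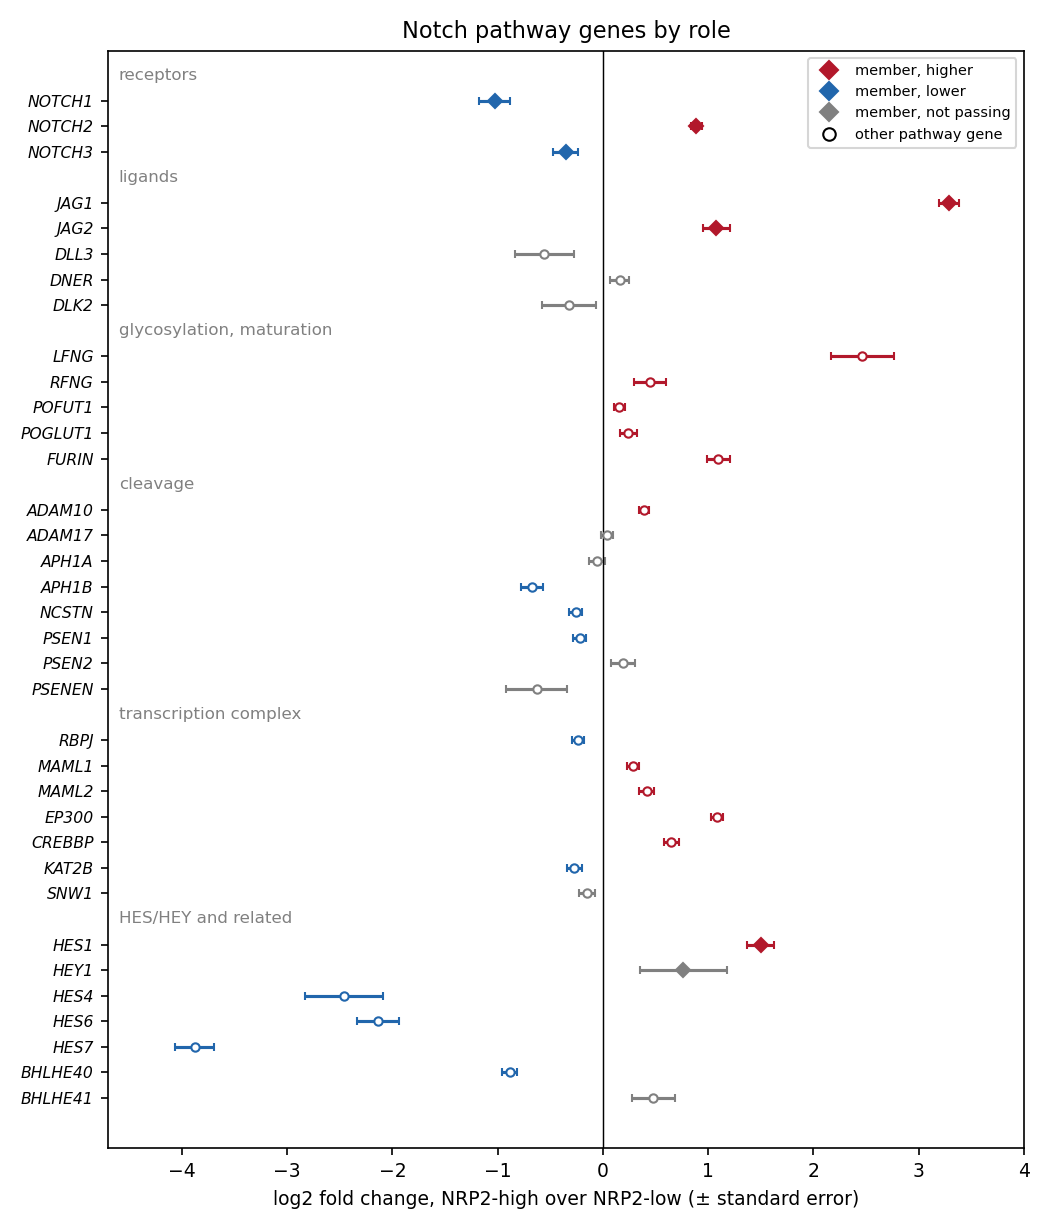
Log2 fold change of tested Notch pathway genes, NRP2-high over NRP2-low, with standard error, by role; filled diamonds are the 7 tested members and open circles other pathway genes, in red where higher, blue where lower and grey where not passing. *JAG1* lay farthest right at 3.29 and *HES7* farthest left at -3.88.

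The surroundings of the members on their chromosomes differed. Of 91 tested genes within 5 Mb of *NOTCH1* (ENSG00000148400.10), which lies on chromosome 9 of hg38 from 136494433 to 136545786, 65 were lower in NRP2-high cells and 2 higher, with a median log2 fold change of -0.55, and 19 of them had a change at least as large as that of *NOTCH1* in either direction. Around *HES7*, on chromosome 17 from 8120590 to 8124084, 112 of 135 neighbors were lower and 4 higher (median -1.01), yet none matched the size of the change of *HES7*. Whole neighborhoods were thus lower around these 2 genes, and the part of these regional shifts in the values of *NOTCH1* and *HES7* was not tested. The neighbors of *JAG1* (23 genes, median 0.04), *HES1* (54 genes, median 0.16), *NOTCH2* (30 genes, median 0.03) and *JAG2* (62 genes, median -0.09) showed no such shift. Of these neighbors, 1 of *JAG1*, 1 of *HES1*, 8 of *NOTCH2* and 5 of *JAG2* changed at least as much as the gene they surround. Around *NOTCH3*, 82 of 230 neighbors were higher and 43 lower (median 0.19), and 112 changed at least as much as *NOTCH3*. Around *HEY1*, 11 of 31 were higher and 3 lower (median 0.27), and 12 changed at least as much as *HEY1*.

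**Figure D4:**
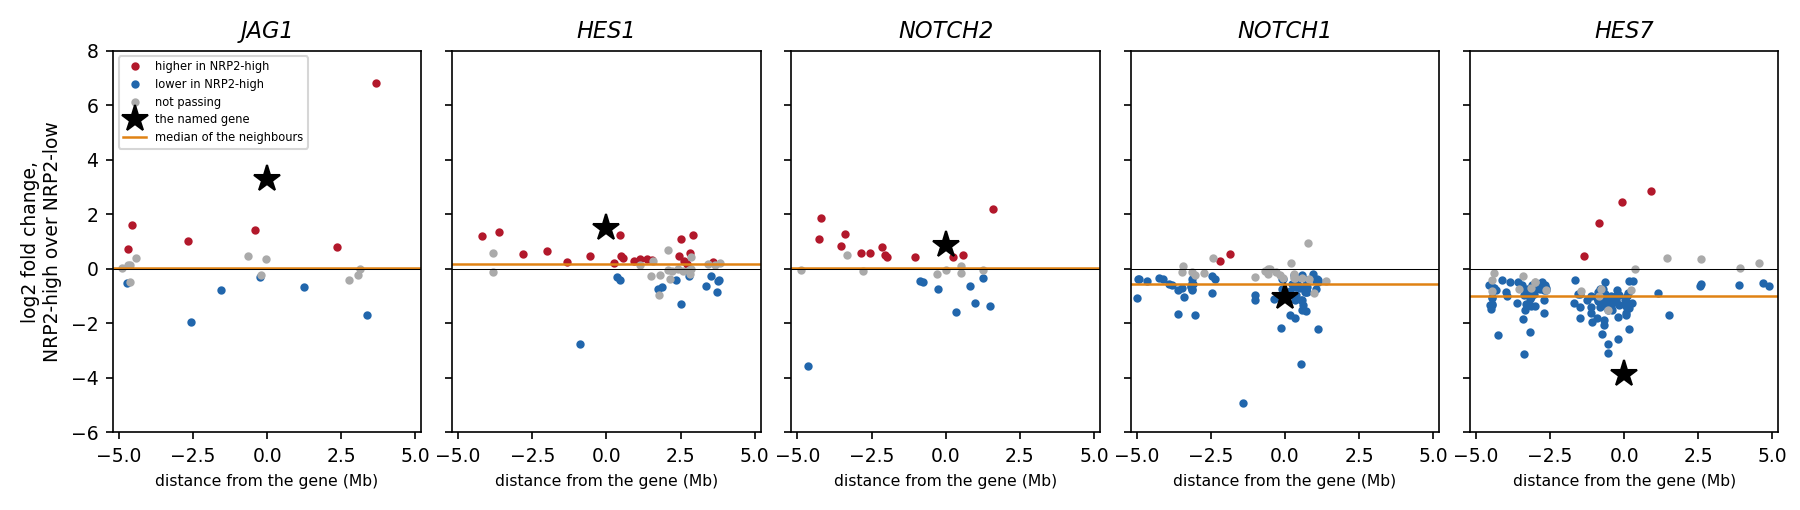
Log2 fold change of tested genes within 5 Mb of 5 genes, by distance in Mb between the lower ends of the 2 genes; stars are the named genes and the orange line the median of the neighbors. Neighbors of *NOTCH1* and *HES7* lay mostly below 0 (medians -0.55 and -1.01), and those of *JAG1*, *HES1* and *NOTCH2* on both sides of it.

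The calls of *JAG1*, *HES1* and *NOTCH2* were kept in all 18 alternatives, and those of *JAG2* and *NOTCH1* in 17, with the exception of log2(TPM + 1) without a filter on low values (adjusted p = 0.0507 for *JAG2* and 0.0732 for *NOTCH1*).

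**Figure D5:**
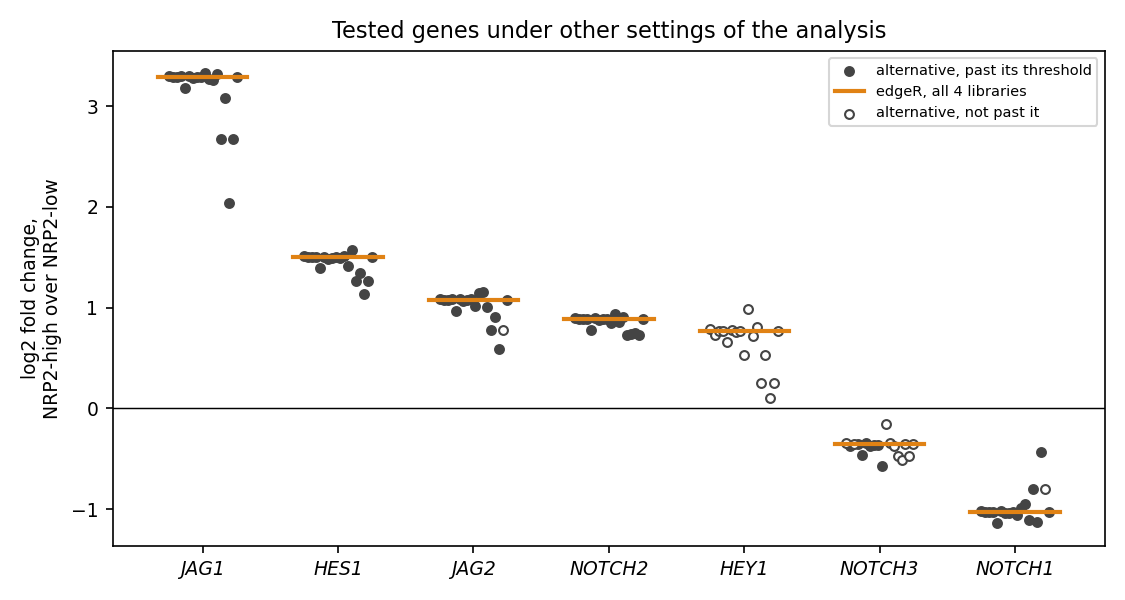
Log2 fold change of the 7 tested genes, NRP2-high over NRP2-low, under the alternative analyses (points; filled where past the threshold of that analysis) and in edgeR with all 4 libraries (orange line). *JAG1*, *HES1*, *JAG2* and *NOTCH2* stayed above 0 and *NOTCH1* and *NOTCH3* below it, while *NOTCH3* was past the threshold in 8 of 18.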

How the data were processed

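The counts were deposited by the authors as whole fragments per gene, after STAR alignment to hg38 and featureCounts with a filter on mapping quality; nothing was normalized or pooled. The annotation release is not given in the sources used here. The deposited TPM values equal the counts per gene length, scaled by the authors to the same sum in each library, and the deposited FPKM values are per length and per total count.

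Genes were filtered with filterByExpr, scaled by TMM and compared between NRP2-high and NRP2-low with the quasi-likelihood test of edgeR 4.0.16 (R 4.3.3) without covariates, at a Benjamini-Hochberg adjusted p under 0.05 over all tested genes; each SE is the size of the log2 change divided by the root of its F statistic. Alternatives were DESeq2 1.42.0, limma 3.58.1 (voom; log2 TPM with pseudocounts of 1 and 0.1; log2 FPKM with 1), glmTreat at 1.5-fold, a cutoff of 0.01 on the adjusted p, other scaling and filters, a replicate block and each library left out. The count scripts were tested on simulated data. The members and lists were chosen with earlier results of these data known. The named genes are the members, the listed receptors and ligands, and up to 3 called genes per list with the smallest adjusted p; others are marked in the text. Of 75 wider symbols, 65 matched the table.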

Additional observations from a re-analysis of the deposited data

How the results depend on the processing

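Over 18 alternatives, the 4 members called higher were 4 in each except log2(TPM + 1) without a filter (3). The members called lower, 2 in edgeR, were 1 in DESeq2, in the test against 1.5-fold, at an adjusted p under 0.01, in log2(TPM + 1), in log2(TPM + 0.1) and in log2(FPKM + 1), 0 in log2(TPM + 1) without a filter, and 1 to 2 without 1 library at a time. The call lost was that of *NOTCH3*, joined by *NOTCH1* and, among those higher, *JAG2* in log2(TPM + 1) without a filter. Over all genes, 4354 were called higher and 4175 lower in edgeR. The test against 1.5-fold called 1441 higher and 1364 lower, and those higher were 2594 in log2(TPM + 1), 2556 in log2(TPM + 0.1) and 1760 in log2(TPM + 1) without a filter. Values without TMM scaling moved the median log2 fold change of all tested genes to -0.12 (library totals alone), -0.14 (TPM + 1) and -0.16 (TPM + 0.1), and higher genes were 51.0% of the calls in edgeR, 40.3% with library totals alone and 35.9% in log2(TPM + 1); no member changed sign. Replicate numbers are shared by the groups but mark no stated pairing, and same-numbered libraries did not deviate together (r = -0.010 over 15083 genes). The fit with the replicate block called 4509 genes higher and 4371 lower and changed the call of no member. Depth limits *DLL1*, *HEY2* and *HEYL*, which the filter on low counts removed and which did not pass without it (adjusted p = 0.0764, 0.991 and 0.630), and *HEY1*, whose log2 fold change ran from 0.11 to 0.98 and passed in none of the 17 alternatives that tested it.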
